A study of Syntrichia ruralis with 8 samples.

Results

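The desiccation-tolerant moss Tortula ruralis, also called Syntrichia ruralis, carries enzymes that make ethanolamine for its membrane lipids and enzymes that add oxygen to the fatty acids of those lipids. The clones described here are those whose annotation in the scanner files contains serine decarboxylase, ethanolamine kinase or lipoxygenase, and 3 of the 768 clones on the array met that rule. They are USD-329 (putative serine decarboxylase), USD-354 (putative ethanolamine kinase 1 : choline kinase) and USD-711 (lipoxygenase-1). A clone annotated as a phosphatidylethanolamine-binding factor was left out by that rule. Each clone is 1 cDNA fragment printed in 3 spots, and the annotation is the submitters' own. That of USD-354 names both an ethanolamine kinase and a choline kinase and does not settle which it is. The clone is called the ethanolamine kinase below.

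Serine decarboxylase removes the carboxyl group of serine and so makes ethanolamine in plants. Ethanolamine kinase puts a phosphate on ethanolamine, the first step of the route that ends in phosphatidylethanolamine, and the phosphoethanolamine it makes can be methylated on the way to choline. Phosphatidylethanolamine is a main membrane phospholipid and tends to form non-bilayer structures when membranes lose water. Lipoxygenase adds molecular oxygen to polyunsaturated fatty acids, and the hydroperoxides formed are the starting material of oxylipins, among them the jasmonate precursor 12-oxophytodienoic acid. These roles are background from vascular plants and were not measured here.

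Each of 8 2-colour arrays set treated gametophytes, the leafy haploid plants, against hydrated gametophytes on the same slide. Slow-dried gametophytes had stood at 66% relative humidity and 20 °C for 24 h and had come down to about 20% of their fresh weight within 6 h. Rapid-dried rehydrated gametophytes, called rehydrated below, had been dried over silica gel and then wetted for 2 h. Hydrated gametophytes had been kept wet for 48 h after collection from the field and dry storage, a step that all groups shared. Total RNA and polysomal RNA, the RNA prepared with ribosomes attached, were measured for both treatments. Each of the 4 comparisons had 2 arrays, with treated RNA labelled by Cy3 on array 1 and by Cy5 on array 2. The design text states that the 2 arrays came from 2 RNA preparations, each pooled from many plants of at least 3 clumps, and that total and polysomal RNA came from different samples. The p-values below therefore measure the spread between these pooled preparations. On these arrays no rapid-dried plants without rehydration and no rewetted slow-dried plants were measured, so the treatments differ in the speed of drying and in the water content at harvest.

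One label is inconsistent. The title of array 2 of rehydrated polysomal RNA (slide 85) says slow-dried, against its source name and protocol, which both say rapid-dried rehydrated, and the array was used as those state. Across the 768 clones its log2 ratios correlated at 0.93 with array 1 of rehydrated polysomal RNA and at 0.73 and 0.74 with the arrays of slow-dried polysomal RNA. Fitted values of the 3 clones and of the list clones named below are given with and without it on the typical-clone scale, but with 1 array left in that comparison 0 of the 768 clones were called by limma (185 at an unadjusted p under 0.05), so no count of calls there holds without it. The share of clones well above background was 82.6 to 98.6% in the treated channels and 71.2 to 94.9% in the hydrated channels, apart from the hydrated channel of array 1 of rehydrated total RNA, where it was 42.4%. Well above background means here that the mean signal of a clone exceeded its local background by 2 background SD. A chlorophyll a/b-binding protein clone and a chloroplast carbonic anhydrase clone, both of photosynthetic tissue, passed this limit on all 8 arrays in hydrated tissue.

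Values are log2 ratios of treated over hydrated signal after background correction and loess, which puts the typical clone of an array at 0. Each fitted value comes from 1 limma fit over the 8 arrays with n = 2 arrays a comparison, and its standard error (SE) is pooled over all arrays, so a clone has the same SE in all 4 comparisons. All 768 clones entered the Benjamini-Hochberg adjustment of the p-values, and a clone is called at an adjusted p under 0.05. A second scale, the control scale, sets the mean of 4 ribosomal protein control clones at 0, which the labels describe as unaffected by the treatments. On it the median clone lay at 1.53 in slow-dried and 1.18 in rehydrated total RNA, and at 1.44 in slow-dried and 1.04 in rehydrated polysomal RNA. A clone at 0 on the typical-clone scale is thus well above 0 on the control scale. Which of these scales is closer to the amount of transcript per plant was not tested. Nor can more cells with a transcript and more transcript per cell be told apart in such pooled tissue.

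The serine decarboxylase transcript was higher in treated than in hydrated gametophytes in all 4 comparisons, whether total or polysomal RNA was measured and on both scales. In slow-dried total RNA the log2 ratio of USD-329 was 1.03 on array 1 and 0.22 on array 2. In rehydrated total RNA it was 1.29 and 0.93. These arrays all lay above 0, with the lowest value on array 2 of slow-dried total RNA. The ratio was 1.36 and 1.30 on the arrays of slow-dried polysomal RNA. On those of rehydrated polysomal RNA it was 1.51 and 1.55. The polysomal arrays lay closer to each other than the total RNA arrays. All 4 exceeded all 4 total RNA arrays, but only narrowly. The lowest polysomal value was 1.305, and array 1 of rehydrated total RNA gave 1.294. On that array and on both arrays of slow-dried total RNA the hydrated channel was not well above background. With all arrays in the fit, neither difference between polysomal and total RNA was called.

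The fitted log2 ratio of the serine decarboxylase was 0.63 in slow-dried total RNA (SE 0.18, adjusted p = 0.0229 by limma), where 32.4% of all clones were called higher and 30.6% lower. It was 1.11 in rehydrated total RNA (SE 0.18, adjusted p = 0.00272), with 29.4% of all clones called higher, and this is 2.16-fold more than in hydrated gametophytes. With a share near 3 in 10 clones called higher, a call in total RNA did not set this transcript apart, and its rank was 235 from the highest of 768 in slow-dried and 97 in rehydrated total RNA. The transcript was 2.52-fold higher in slow-dried polysomal RNA (log2 1.33, SE 0.18, adjusted p = 0.0019, 21% of clones called higher), rank 46. In rehydrated polysomal RNA it was 2.89-fold higher (log2 1.53, SE 0.18, adjusted p = 0.0041, 19% of clones called higher), and only 2 of the 768 clones had a larger fitted rise.

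**Figure D1:**
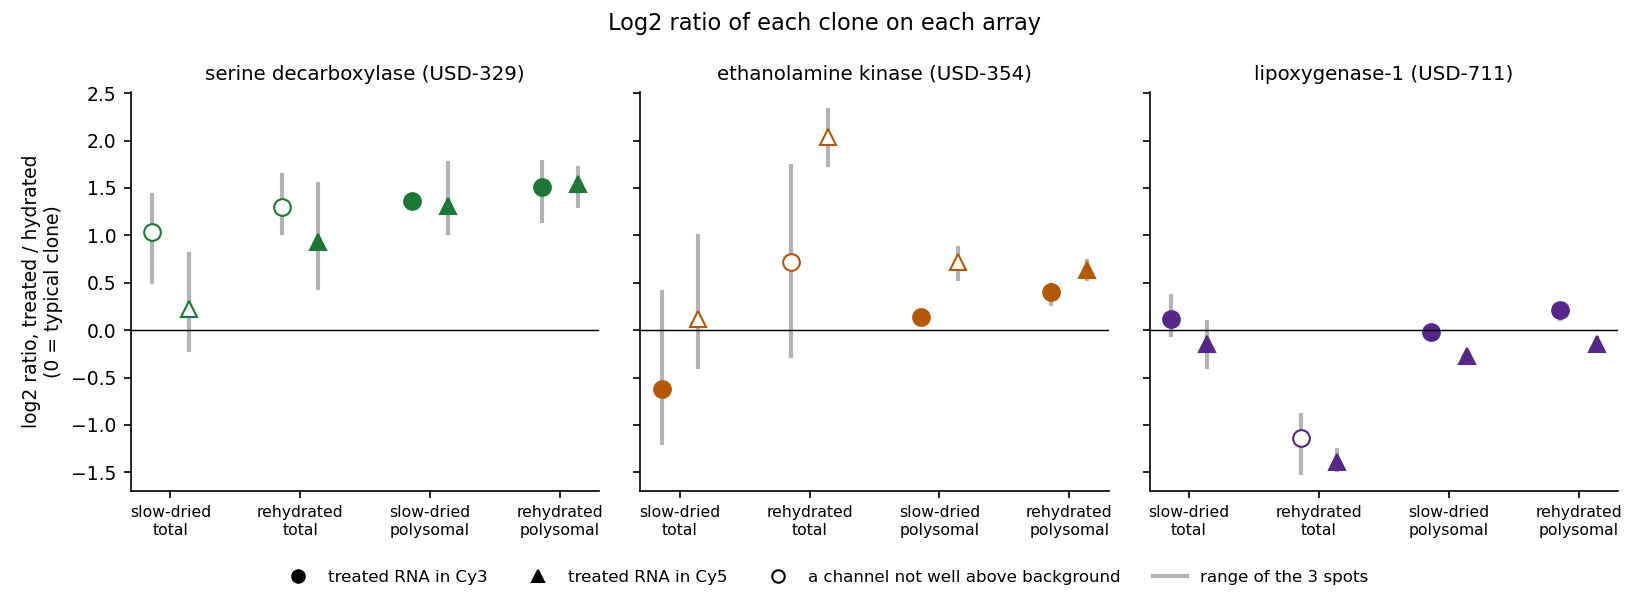
Log2 ratio of treated over hydrated signal (y axis, 0 is the typical clone) of the 3 clones on each of the 8 arrays, grouped by comparison (x axis). Circles are arrays with the treated RNA in Cy3, triangles those with it in Cy5, open symbols mark a channel not well above background, and grey bars span the 3 spots. The serine decarboxylase lies above 0 on every array, and lipoxygenase-1 lies near 0 except at -1.14 and -1.39 in rehydrated total RNA.

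The channels behind these ratios differed in how far they rose over background. The mean spot signal of USD-329 in the slow-dried channel of total RNA was 1985 and 807 scanner units, against 412 and 624 in the hydrated channel, and the hydrated channel was not well above background on either array. The fitted rise in slow-dried total RNA, 1.55-fold, therefore rests on hydrated signals below their background limit. It is the plain fitted ratio and not a lower bound, and array 2 alone gave a log2 ratio of 0.22 against 1.03 on array 1. For rehydrated total RNA the signals were 1859 and 2413 in the rehydrated channel and 206 and 751 in the hydrated channel, which passed the background limit on 1 of the 2 arrays. On the polysomal arrays both channels passed it throughout. There the slow-dried channel gave 3527 and 7111 units against 972 and 1549 in the hydrated channel, and the rehydrated channel gave 3673 and 5092 units against 2372 and 1412. The treated channel was well above background on all 8 arrays, so the polysomal rises are measured on both sides and the total RNA rises only in part.

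**Figure D2:**
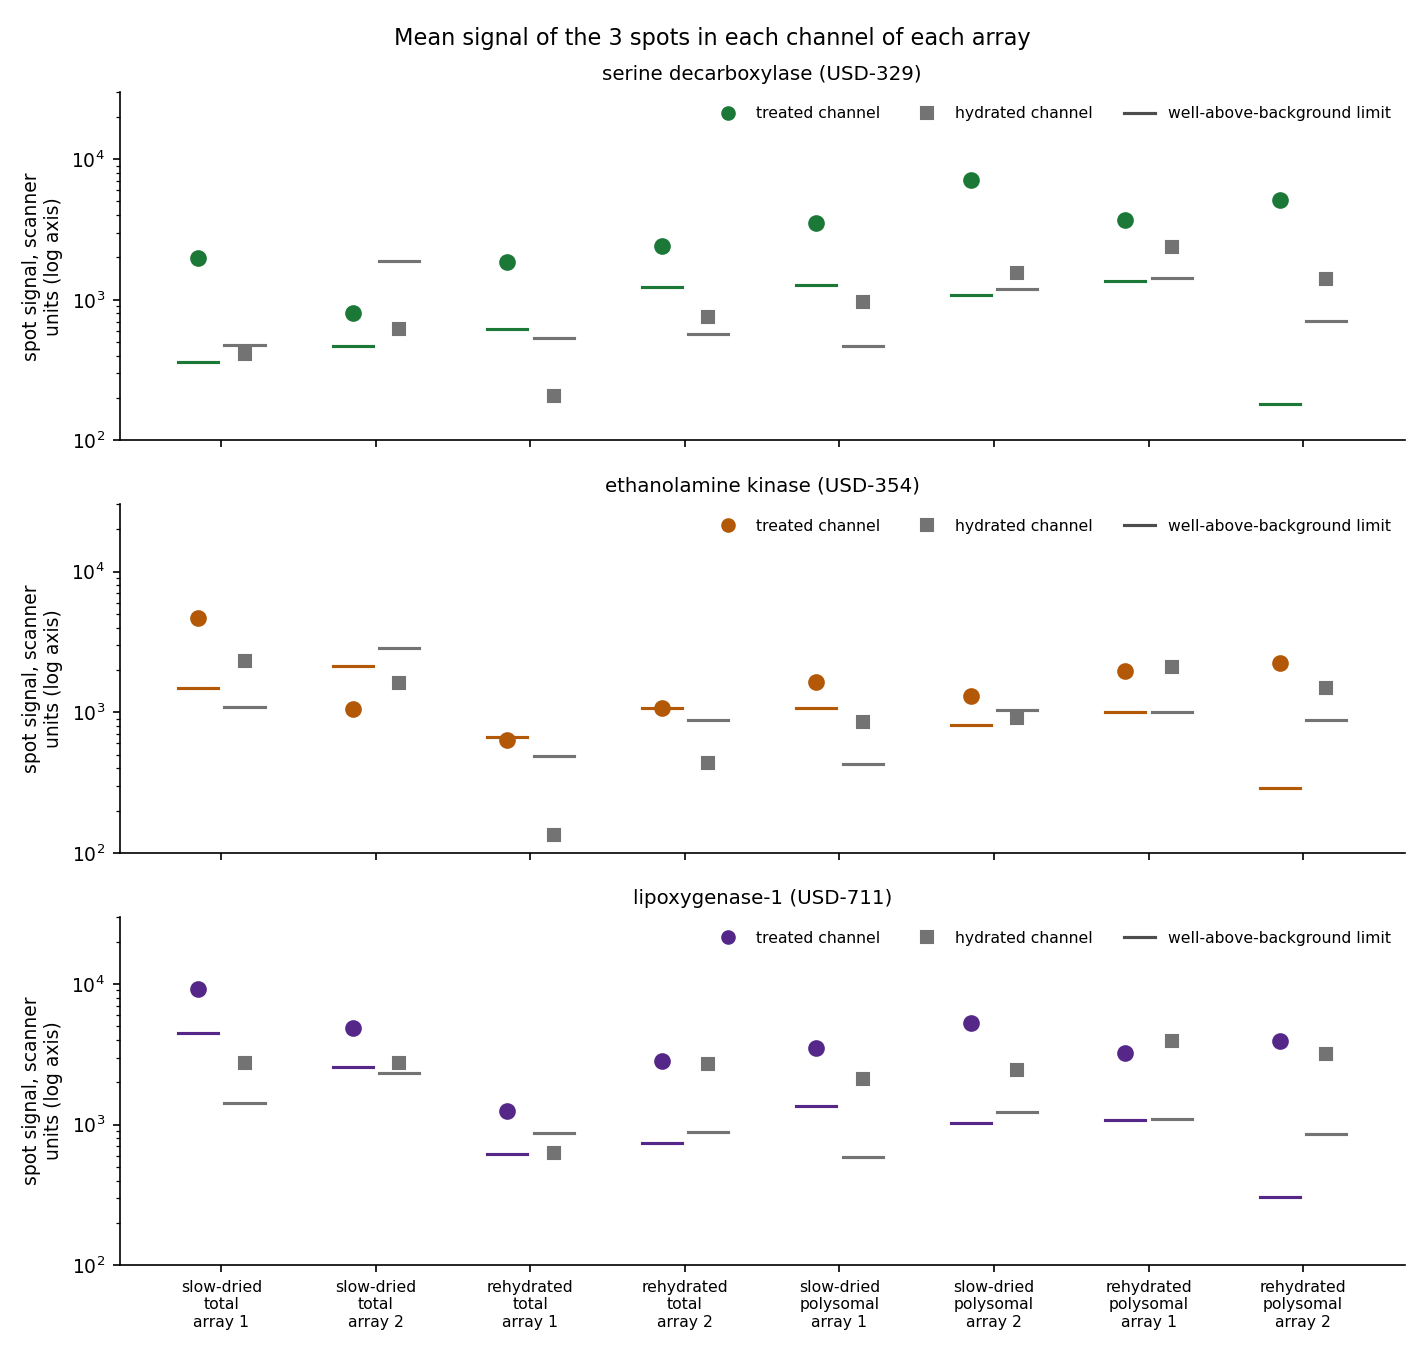
Mean signal of the 3 spots of each clone in the treated channel (coloured circles) and the hydrated channel (grey squares) of each array, on a log axis in scanner units before normalisation. Short lines mark the limit of well above background for that channel. The ethanolamine kinase lies at or below its limit in both channels of the arrays of rehydrated total RNA, and the serine decarboxylase lies below it in the hydrated channel of both arrays of slow-dried total RNA.

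The 3 spots of the serine decarboxylase within an array ran from 0.50 to 1.43 and from -0.21 to 0.80 on the arrays of slow-dried total RNA, and from 1.31 to 1.40 and from 1.03 to 1.77 on those of slow-dried polysomal RNA. Without array 1 the value in slow-dried total RNA was 0.29 (adjusted p = 0.271) and no longer called. Without array 2 of slow-dried polysomal RNA the rise there was 1.17 (adjusted p = 0.0509). In rehydrated polysomal RNA it was 1.31 without slide 85 (adjusted p = 0.13) and 1.75 without array 1 (adjusted p = 0.127), where again 0 of the 768 clones were called by limma (180 at an unadjusted p under 0.05). The direction was upward with each array left out.

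Relative to the ribosomal protein controls the serine decarboxylase rise was 2.12 in slow-dried and 2.30 in rehydrated total RNA, and 2.74 in slow-dried and 2.58 in rehydrated polysomal RNA (SE 0.28, all 4 called). These are folds of 4.33, 4.92, 6.69 and 5.98, the first over a hydrated channel not well above background on either array. Of all clones, 77.7, 72.5, 81.6 and 75.5% were called higher on that scale in the same 4 comparisons, and 3.26, 1.56, 2.6 and 1.3% lower. The rise thus holds on either scale, while its size depends on the scale by more than 2-fold. The authors' own deposited ratios, which are set to the same control clones, were 6.80 and 2.66 on the slow-dried and 76.3 and 3.55 on the rehydrated arrays of total RNA. On the polysomal arrays they were 5.83 and 6.08 for slow-dried and 5.14 and 6.51 for rehydrated plants. All 8 lay above 1. A fit to these ratios kept the direction of the rise in all 4 comparisons but called it only in rehydrated total RNA. The ratio of 76.3 came from the array whose hydrated channel gave 206 units, below the background limit of 536 units.

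With all arrays in the fit, none of the 4 differences between comparisons passed the threshold for the serine decarboxylase. Its rise was larger in polysomal than in total RNA of slow-dried plants by 0.71 (95% interval 0.081 to 1.33, adjusted p = 0.0837), while 13.8% of all clones were called higher and 15.5% lower in this difference (9.24 and 9.77% on the control scale). That difference was 1.05 and called without array 1 of slow-dried total RNA (adjusted p = 0.0271), and 0.36 without array 2 (adjusted p = 0.353). For rehydrated plants the polysomal rise exceeded that in total RNA by 0.42 (interval -0.21 to 1.04, adjusted p = 0.271), where 14.5% of clones were called higher and 15.5% lower (5.6 and 13.2% on the control scale), and by 0.19 without slide 85 (adjusted p = 0.78). Slow-dried minus rehydrated gave -0.48 in total RNA (interval -1.11 to 0.14, adjusted p = 0.217) and -0.20 in polysomal RNA (interval -0.82 to 0.43, adjusted p = 0.684), and in polysomal RNA 0.26% of all clones were called higher and 3.65% lower (0 and 0% on the control scale). Without slide 85 the polysomal difference was 0.026 (adjusted p = 0.986). All 4 intervals are wide and 3 of them include 0. The total and polysomal files also differ in their column layout, so the file format and the RNA fraction cannot be told apart.

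The ethanolamine kinase transcript gave a less even picture. It was called higher only in rehydrated total RNA, where its signal was too low in both channels for a fold to be given. The log2 ratio of USD-354 was -0.62 on array 1 and 0.12 on array 2 of slow-dried total RNA. It was 0.72 and 2.04 in rehydrated total RNA. The arrays of slow-dried polysomal RNA gave 0.14 and 0.72, and those of rehydrated polysomal RNA 0.40 and 0.64. All 8 arrays but array 1 of slow-dried total RNA lay above 0, and the arrays of rehydrated total RNA differed from each other by more than those of any other comparison of this clone.

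The fitted ratio of the ethanolamine kinase was -0.25 in slow-dried total RNA (SE 0.20, adjusted p = 0.297) and 1.38 in rehydrated total RNA (SE 0.20, adjusted p = 0.00174). In polysomal RNA it was 0.43 in slow-dried plants (95% interval -0.055 to 0.91, adjusted p = 0.132) and 0.52 in rehydrated plants (interval 0.034 to 1.00, adjusted p = 0.0902), and neither passed the threshold. Without slide 85 the rehydrated polysomal value was 0.84 (adjusted p = 0.18). The slow-dried total RNA value was called lower with median centring (-0.91, adjusted p = 0.00806), without background correction (-0.79, adjusted p = 0.00573) and with the median of spots (-0.67, adjusted p = 0.0312), and was -2.51 from the authors' ratios, centred on each array's median (adjusted p = 0.0577). With dye-swap normalization it was 0.33. That setting evens out the 2 arrays of a comparison but does not set the typical clone at 0, so its sign cannot be compared. All 4 values were called on the control scale, at 1.23, 2.57, 1.84 and 1.57 in the order slow-dried total, rehydrated total, slow-dried polysomal and rehydrated polysomal RNA (SE 0.28). Whether this transcript rose in polysomal RNA therefore depends on which clones set the 0.

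The signals behind these ratios were low on several arrays. In rehydrated total RNA the rehydrated channel of USD-354 gave 638 and 1071 scanner units against background limits of 669 and 1072, and the hydrated channel gave 134 and 436 units against limits of 486 and 881. In slow-dried total RNA both channels passed on array 1, with 4644 units in the slow-dried and 2312 in the hydrated channel. On array 2 neither did, at 1049 and 1601 units, and all 3 spots carried a flag. So 1 array of slow-dried and none of rehydrated total RNA measured this transcript in both channels. The slow-dried polysomal arrays gave 1643 and 1310 units against 849 and 905 in the hydrated channel, which was well above background on array 1 only. Both channels passed on both arrays of rehydrated polysomal RNA, at 1973 and 2246 units in the rehydrated and 2108 and 1488 in the hydrated channel.

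A difference between the treatments in total RNA was called for the ethanolamine kinase, but it sets against each other fitted ratios of which only array 1 of slow-dried total RNA was measured in both channels, so its size is not a measured fold. Slow-dried minus rehydrated was -1.64 (SE 0.28, adjusted p = 0.0144), and 11.3% of all clones were called lower and 6.38% higher in this difference. It was -1.33 on the control scale (adjusted p = 0.0308), where 4.3% were called lower and 7.29% higher. Without array 2 of slow-dried total RNA it was -1.65 and no longer called (adjusted p = 0.0575), and with the mean in place of the median of the background pixels it was -1.37 (adjusted p = 0.0599). From the authors' ratios, centred on each array's median, it was -4.58 (adjusted p = 0.114), and the value in rehydrated total RNA was 2.07 and not called (adjusted p = 0.1). The same difference in polysomal RNA was -0.09 (interval -0.78 to 0.60, adjusted p = 0.862), and -0.41 without slide 85 (adjusted p = 0.734). Polysomal minus total RNA was 0.68 in slow-dried plants (adjusted p = 0.117) and -0.86 in rehydrated plants (adjusted p = 0.0635). Both depended on the processing. In slow-dried plants it was called without background correction (1.03, adjusted p = 0.0222) and with the median of spots (1.12, adjusted p = 0.0347). For rehydrated plants it was called with a normexp offset of 0 (-1.32, adjusted p = 0.0316), with flagged spots left out (-1.19, adjusted p = 0.0284), with dim clones left out (-0.86, adjusted p = 0.0486), with dye-swap normalization (-1.69, adjusted p = 0.00193) and without array 1 of rehydrated total RNA (-1.26, adjusted p = 0.0256), while it was -0.17 with median centring (adjusted p = 0.664) and -0.54 without slide 85 (adjusted p = 0.41). With dye-swap normalization 607 of the 768 clones were called lower and 3 higher in that difference of rehydrated plants. The authors' deposited ratios spread widely for this clone in total RNA, at 1.97 and 0.154 in slow-dried and 46.8 and 4.22 in rehydrated plants. They lay at 2.14, 3.02, 2.52 and 3.42 on the polysomal arrays.

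**Figure D3:**
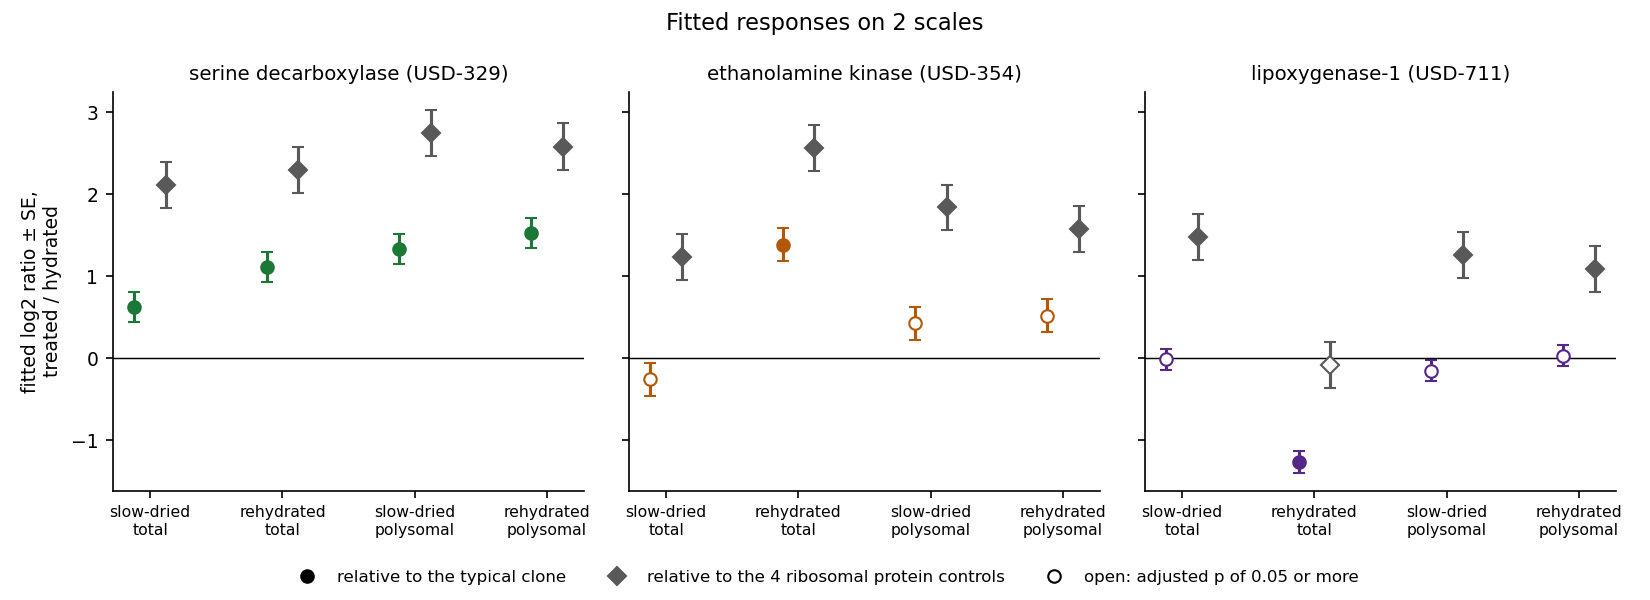
Fitted log2 ratio of treated over hydrated signal ± SE of the 3 clones in the 4 comparisons, relative to the typical clone (coloured circles) and to the 4 ribosomal protein controls (grey diamonds). Open symbols have an adjusted p of 0.05 or more. Lipoxygenase-1 in rehydrated total RNA lies at -1.26 on the first scale and at -0.08 on the second.

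Lipoxygenase-1 was not called higher in any comparison relative to the typical clone. In its calls it differed from the ethanolamine kinase only in rehydrated total RNA. There neither channel of the ethanolamine kinase was well above background. No test compared the clones. Relative to the typical clone, the lipoxygenase-1 transcript had fitted ratios between -0.15 and 0.03 in 3 of the 4 comparisons. It was 2.40-fold lower on that scale in rehydrated total RNA, a fall not seen on the control scale (-0.08). The log2 ratio of USD-711 was 0.12 and -0.15 on the arrays of slow-dried total RNA. It was -1.14 and -1.39 in rehydrated total RNA. Slow-dried polysomal RNA gave -0.02 and -0.27, and rehydrated polysomal RNA gave 0.21 and -0.15. The arrays of rehydrated total RNA lay below all 6 others, with no overlap. How many of all clones show such a gap was not counted. On array 1 of rehydrated total RNA the hydrated signal was 631 units, below its background limit of 876.

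The fitted ratio of lipoxygenase-1 in rehydrated total RNA was -1.26 (SE 0.13, adjusted p = 0.000625), where 26.8% of all clones were called lower, and its rank was 71 from the lowest of 768. In the other comparisons it was -0.01 in slow-dried total RNA (95% interval -0.33 to 0.30, adjusted p = 0.937), -0.15 in slow-dried polysomal RNA (interval -0.46 to 0.16, adjusted p = 0.392, 24.5% of clones called lower) and 0.03 in rehydrated polysomal RNA (interval -0.28 to 0.35, adjusted p = 0.866, 17.6% called lower), and the last was 0.086 without slide 85 (adjusted p = 0.86). These intervals leave room for log2 values from -0.46 to 0.35. The SE of this clone was among the smallest on the array, with 0.911% of clones below it and a median of 0.18 over all clones.

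The fall of lipoxygenase-1 holds against the typical clone and not against the ribosomal protein controls. On the control scale the ratio in rehydrated total RNA was -0.08 (SE 0.28, 95% interval -0.65 to 0.50, adjusted p = 0.819), and the clone was called higher in slow-dried total RNA (1.47), slow-dried polysomal RNA (1.26) and rehydrated polysomal RNA (1.09). The authors' deposited ratios, on such a scale, were 2.10 and 1.16 in rehydrated total RNA, against array medians of 4.81 and 2.34. In slow-dried total RNA they were 3.71 and 3.55, in slow-dried polysomal RNA 2.41 and 2.10, and in rehydrated polysomal RNA 2.42 and 1.87. Lipoxygenase-1 thus had its lowest fitted ratio in rehydrated total RNA on all 3 of these scales (0.64 from the authors' ratios, adjusted p = 0.0502), while its direction against hydrated plants differed between them. With dye-swap normalization in place of loess it was 0.51 there (adjusted p = 0.0137). That setting does not put the typical clone at 0, and under it 602 of the 768 clones were called higher and 3 lower.

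Signals of lipoxygenase-1 were high enough to be read in nearly all channels. The slow-dried channel of total RNA gave 9220.4 and 4838 scanner units against 2764 and 2730 in the hydrated channel. For rehydrated total RNA the signals were 1257 and 2825 in the rehydrated channel and 631 and 2717 in the hydrated channel, the first of which was below its background limit of 876. Before normalisation the treated signal was thus the higher on all these arrays. The polysomal arrays gave 3494 and 5302 units in the slow-dried channel against 2097 and 2441 in the hydrated channel, and 3247 and 3934 units in the rehydrated channel against 3937 and 3161. With array 1 of rehydrated total RNA left out, the array with the dim hydrated channel, the fitted value and call in that comparison kept their side of the threshold, and leaving out either array moved the value only between -1.28 and -1.24.

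Both differences that involve rehydrated total RNA were called for lipoxygenase-1. Polysomal minus total RNA in rehydrated plants was 1.30 (SE 0.18, adjusted p = 0.0054), where 14.5% of all clones were called higher, and on the control scale it was 1.16 (adjusted p = 0.043). Slow-dried minus rehydrated in total RNA was 1.25 (SE 0.18, adjusted p = 0.00898, 6.38% of clones called higher), and 1.55 on the control scale (adjusted p = 0.0137). The other differences were -0.14 for polysomal minus total RNA in slow-dried plants (interval -0.58 to 0.31, adjusted p = 0.605) and -0.18 for slow-dried minus rehydrated in polysomal RNA (interval -0.63 to 0.26, adjusted p = 0.573), or -0.24 without slide 85 (adjusted p = 0.812). The fraction difference in rehydrated plants was 1.35 without slide 85 (adjusted p = 0.087) and 1.24 without the other polysomal array (adjusted p = 0.0802), so the size held and the call did not. With dye-swap normalization, which does not set the typical clone at 0, it was -0.44. Under that setting 607 of the 768 clones were called lower in this difference and 3 higher. The sign there does not place this clone relative to the typical clone. From the authors' ratios, centred on each array's median, this difference was 1.18 (adjusted p = 0.0739) and the difference between treatments 1.32 (adjusted p = 0.0911). On the authors' own scale they were 0.45 (adjusted p = 0.369) and 1.22 (adjusted p = 0.161). All 4 comparisons have hydrated gametophytes as the partner, and the 2 called differences share the arrays of rehydrated total RNA.

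**Figure D4:**
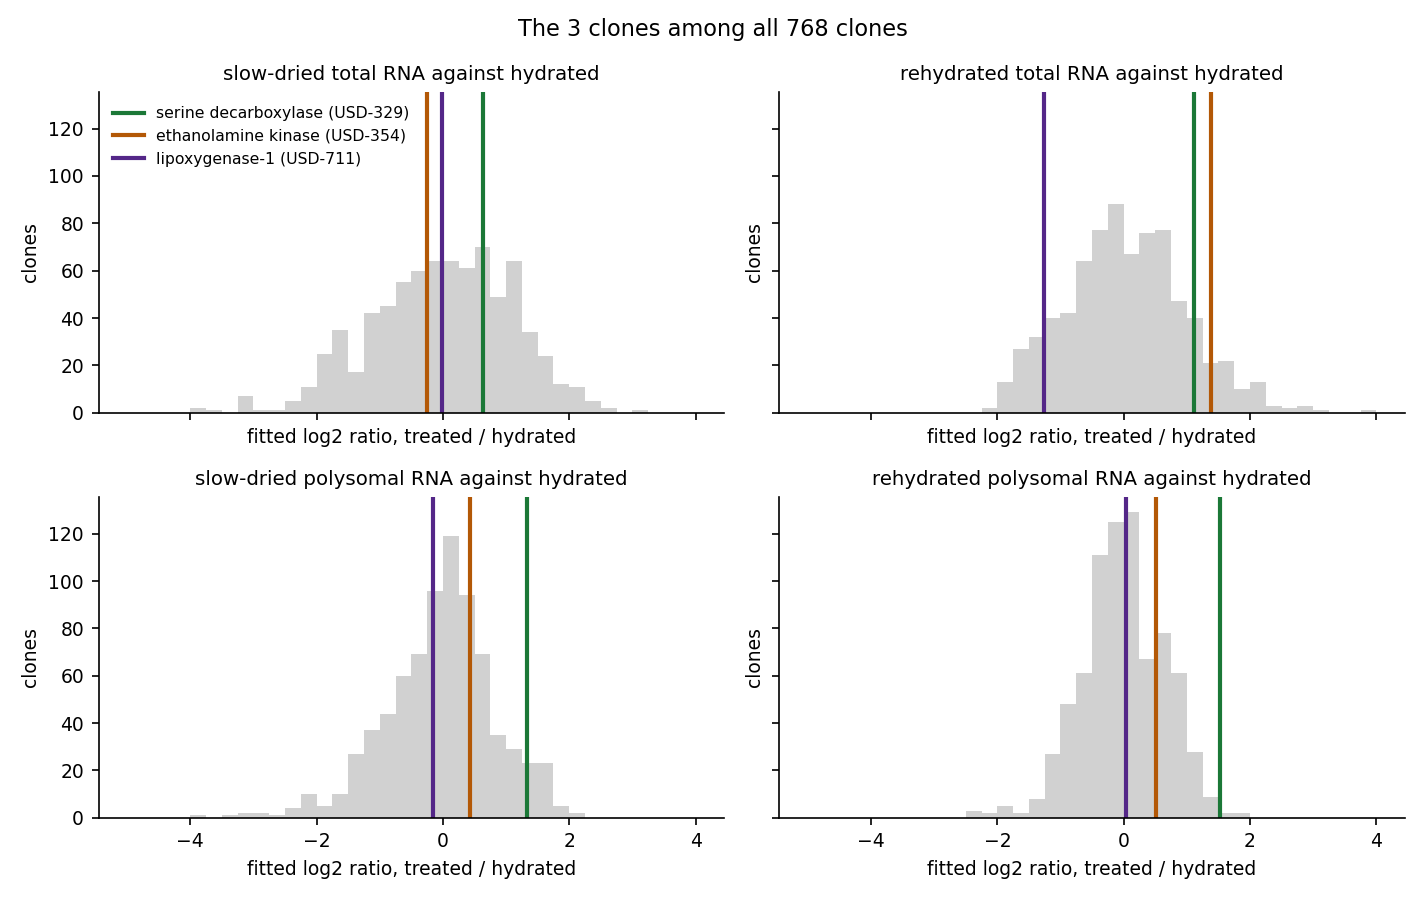
Number of clones (y axis) by fitted log2 ratio of treated over hydrated signal (x axis, bins of 0.25) over all 768 clones, 1 panel per comparison, with the 3 clones marked by vertical lines. The serine decarboxylase lies within the body of the distribution in slow-dried total RNA and at its upper end in rehydrated polysomal RNA, where it has rank 3.

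Set side by side on the typical-clone scale, the serine decarboxylase was called higher in 4 of 4 comparisons, the ethanolamine kinase in 1 and lipoxygenase-1 in 0. Lipoxygenase-1 was called lower in 1. Of all clones, 19 to 32.4% were called higher and 17.6 to 30.6% lower. The call of the ethanolamine kinase was in rehydrated total RNA, where neither of its channels was well above background. That of the serine decarboxylase in slow-dried total RNA rests on hydrated signals below their background limit. Relative to the controls the serine decarboxylase, the ethanolamine kinase and lipoxygenase-1 were called higher in 4, 4 and 3 comparisons and lower in 0. On that scale 72.5 to 81.6% of all clones were called higher. The root mean square difference of log2 ratio over the 8 arrays was 1.01 between the serine decarboxylase and the ethanolamine kinase, 1.48 between lipoxygenase-1 and the ethanolamine kinase, and 1.63 between lipoxygenase-1 and the serine decarboxylase. These are descriptions over arrays that share hydrated tissue as partner, and no test was made of them. Those with the ethanolamine kinase include arrays of total RNA on which neither of its channels was well above background.

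By the same measure, the annotated clones most like lipoxygenase-1 among 206 were an enoyl-hydratase isomerase family protein (USD-622, 0.279), a family that includes enzymes of fatty acid breakdown, the stay-green protein of chlorophyll degradation (USD-599, 0.402) and aldehyde dehydrogenase Aldh21A1 (USD-30, 0.416). The median over the 206 was 0.956. All 3 had their lowest fitted ratio in rehydrated total RNA, at -0.79, -0.72 and -0.68. Neighbours here and below were picked on these same arrays, so sharing the pattern of their clone follows from that choice. Nearest to the serine decarboxylase were clones annotated as a proline-rich protein (USD-569, 0.560), a protein like At5g01750 of Arabidopsis (USD-204, 0.637) and a glutathione S-transferase (USD-690, 0.697), against a median of 1.52. None of these neighbours was as close as that of lipoxygenase-1. Their fitted ratios in rehydrated polysomal RNA, from both arrays, were 0.92, 0.98 and 0.81, below the 1.53 of the serine decarboxylase. For the ethanolamine kinase they were a low temperature-induced protein (USD-693, 0.552), trehalase (USD-539, 0.579), which splits trehalose into glucose, and the early dehydration protein ERD4 (USD-514, 0.598), against a median of 1.20. These 3 had fitted ratios of 0.90, 0.87 and 1.03 in rehydrated total RNA and -0.16, -0.24 and -0.48 in slow-dried total RNA. In total RNA the ethanolamine kinase itself was well above background in both channels only on array 1 of slow-dried plants. Its likeness to these clones thus rests partly on ratios near background.

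The search terms for lipids and their oxidation matched 8 other clones. In slow-dried total RNA 2 of the 8 were called higher and 4 lower (median log2 -0.02, against 0.05 over all clones), where 32.4% of all clones were called higher and 30.6% lower. The counts in rehydrated total RNA were 1 and 3 (median -0.38, against -0.01), beside 29.4 and 26.8% of all clones. For slow-dried polysomal RNA they were 1 and 2 (median -0.26, against 0.03), beside 21 and 24.5%, and for rehydrated polysomal RNA 2 and 3 (median 0.08, against -0.02), beside 19 and 17.6%. Against the controls 5, 5, 6 and 5 of the 8 were called higher and 0, 0, 1 and 1 lower, beside 77.7, 72.5, 81.6 and 75.5% of all clones called higher and 3.26, 1.56, 2.6 and 1.3% lower. With counts this small, nothing is read from them about the list. Without slide 85 the adjusted p-values of all clones of the 3 lists described here and below lay between 0.0838 and 0.983 in rehydrated polysomal RNA.

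The lipid clone with the largest fall was a soluble epoxide hydrolase (USD-766), an enzyme that opens the epoxides of fatty acids. It was at -1.20 in slow-dried and -0.70 in rehydrated total RNA, and at -2.13 in slow-dried and -1.98 in rehydrated polysomal RNA (SE 0.16, all 4 called). Without slide 85 the last of these was -1.94 (adjusted p = 0.0838). It was called lower on the control scale in both polysomal comparisons, at -0.72 and -0.93, and in neither total RNA comparison, at 0.29 and 0.49. The phosphatidylethanolamine-binding clone (USD-141) was at -1.12, -1.20, -0.83 and -1.09 in the same order (SE 0.16, all called), and none of these was called on the control scale, where they were 0.36, -0.01, 0.58 and -0.04. Without slide 85 the rehydrated polysomal value was -1.01 (adjusted p = 0.137). This clone was lower relative to the typical clone on all 8 arrays, the opposite direction to the serine decarboxylase.

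Downstream of lipoxygenase, a 12-oxophytodienoate reductase acts in the route to jasmonates in vascular plants. Whether the opr2 form of this enzyme acts in that route was not measured. The clone annotated as opr2 (USD-637) was higher in slow-dried total RNA by 0.60 and in rehydrated total RNA by 1.10. It was higher in rehydrated polysomal RNA by 0.89 (SE 0.14, all 3 called), and was at -0.31 in slow-dried polysomal RNA (adjusted p = 0.119). In rehydrated polysomal RNA it was 0.73 without slide 85 (adjusted p = 0.162). This clone was thus called higher in rehydrated total RNA where lipoxygenase-1 was called lower. It was higher in all 4 comparisons on the control scale, at 2.08, 2.29, 1.10 and 1.94 in the order slow-dried total, rehydrated total, slow-dried polysomal and rehydrated polysomal RNA.

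Among clones that act on phospholipids, an acyltransferase of the tafazzin type (USD-67), a class that remodels the acyl chains of cardiolipin in mitochondria of other organisms, was lower in total RNA and higher in polysomal RNA. Its ratios were -0.38 in slow-dried and -0.66 in rehydrated total RNA, and 1.12 in slow-dried and 0.53 in rehydrated polysomal RNA (SE 0.13, all called), and without slide 85 the last was 0.45 (adjusted p = 0.333). All 4 lay above 0 on the control scale, at 1.11, 0.52, 2.53 and 1.58. Phospholipase D cuts the head group, such as ethanolamine or choline, from a phospholipid. Its delta form (USD-48) fell by 0.97 in slow-dried total RNA (SE 0.21, adjusted p = 0.00726), and its alpha form (USD-157) fell by 0.79 in rehydrated polysomal RNA (SE 0.17, adjusted p = 0.0131) and by 0.94 without slide 85 (adjusted p = 0.149), neither of which was called on the control scale (0.52 and 0.26). A GDSL-motif lipase (USD-729) rose by 0.86 in slow-dried total RNA (SE 0.15, adjusted p = 0.00256). Its hydrated channel was well above background on 1 array there and on 0 arrays in the other comparisons. In those it was not called, at -0.05 in rehydrated total, 0.23 in slow-dried polysomal and 0.08 in rehydrated polysomal RNA. Without slide 85 the last was -0.009.

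**Figure D5:**
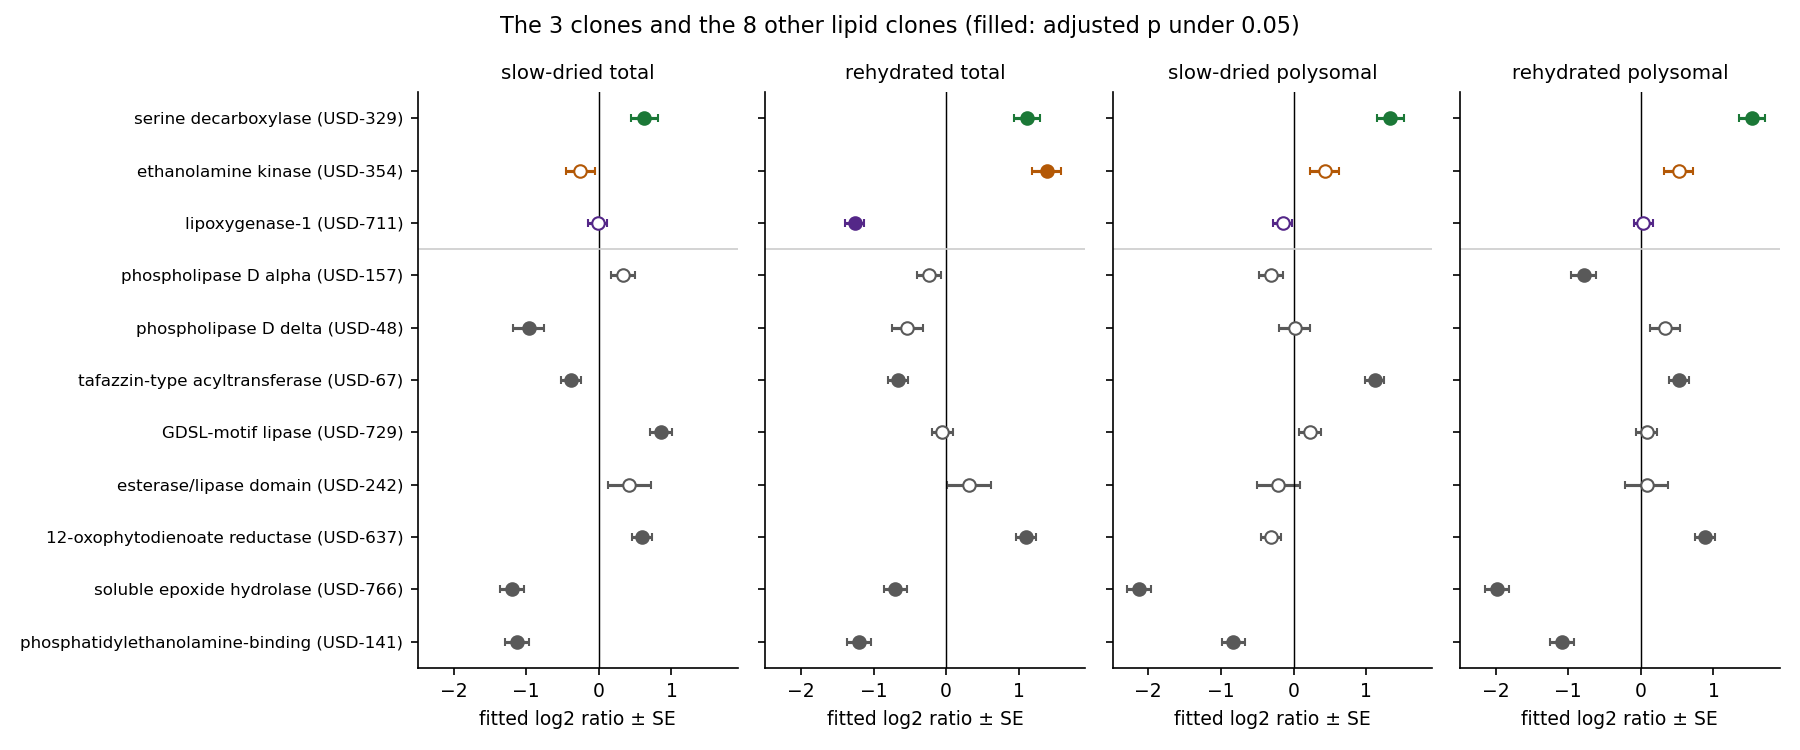
Fitted log2 ratio of treated over hydrated signal ± SE (x axis, 0 is the typical clone) of the 3 clones (coloured, top) and of the 8 other clones annotated with lipid terms (grey), 1 panel per comparison. Filled symbols have an adjusted p under 0.05. The serine decarboxylase is filled and above 0 in all 4 panels, and the soluble epoxide hydrolase and the phosphatidylethanolamine-binding clone are filled and below 0 in all 4.

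Enzymes that remove peroxides and aldehydes, the products of lipid oxidation among others, numbered 12 clones. Of these, 5 were called higher and 4 lower in slow-dried total RNA, 3 and 4 in rehydrated total RNA, and 1 and 5 in each polysomal comparison, with medians of 0.16, -0.09, -0.37 and -0.15. The shares of all clones called higher and lower were 32.4 and 30.6% in slow-dried total, 29.4 and 26.8% in rehydrated total, 21 and 24.5% in slow-dried polysomal and 19 and 17.6% in rehydrated polysomal RNA. Against the controls 8, 8, 7 and 7 were called higher and 2, 0, 1 and 1 lower, beside 77.7, 72.5, 81.6 and 75.5% and 3.26, 1.56, 2.6 and 1.3% of all clones. In rehydrated total RNA, where lipoxygenase-1 was low, catalase (USD-265), which breaks down hydrogen peroxide, had a fitted ratio of 2.21 (SE 0.18, adjusted p = 0.00046) over a hydrated channel not well above background. In the same comparison a microsomal glutathione S-transferase (USD-460) fell by 1.05 (SE 0.16, adjusted p = 0.00202) and a glyoxalase-type clone (USD-104) by 0.93 (SE 0.14, adjusted p = 0.00209). Neither was called on the control scale, at 0.14 and 0.25.

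Of 7 clones of amino acid metabolism and transport, 1 was called higher and 2 lower in slow-dried and 1 and 3 in rehydrated total RNA, beside 32.4 and 30.6% and 29.4 and 26.8% of all clones. In polysomal RNA the counts were 0 and 2 in slow-dried and 1 and 1 in rehydrated plants, beside 21 and 24.5% and 19 and 17.6%. Their medians were -0.27, -0.57, -0.25 and -0.28, and on the control scale 5, 4, 7 and 5 were called higher and 0, 1, 0 and 0 lower, beside the same shares of all clones on that scale as given for the peroxide enzymes. In rehydrated polysomal RNA, where the serine decarboxylase had its largest rise relative to the typical clone, a glutamate decarboxylase (USD-735), which makes gamma-aminobutyrate, was at 0.79 (SE 0.22, adjusted p = 0.0313) and D-amino acid oxidase (USD-638) at -0.67 (SE 0.13, adjusted p = 0.0113). Without slide 85 they were 0.60 (adjusted p = 0.371) and -0.79 (adjusted p = 0.15). The highest of these 7 clones in that comparison was this glutamate decarboxylase.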

How the data were processed

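Intensity values of each spot and of its local background, per channel and in arbitrary scanner units, were read from the deposited scanner files, which hold no normalization per the file headers. The deposited files also give a spot flag, another kind of value whose meaning, like the scanner and image software, is not given in the sources used here. A deposited table by the authors holds 1 ratio of treated over hydrated signal per clone and array, scaled so that the median of 4 ribosomal protein clones (L17, S14, S16, S3) is 1, and was used as an alternative (2 empty values). The design text names another pair in place of L17 and S3.

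Both channels were corrected by normexp (mean signal, median background, offset 50), log2 ratios of the deposited intensities were normalized by global loess (span 0.3, 4 iterations), and the 3 spots of a clone were averaged. limma 3.58.1 in R 4.3.3 fitted 4 comparisons and a dye term over 8 arrays (3 residual and 6.41 total degrees of freedom), with two-sided p-values adjusted over 768 clones. Contrasts gave the 4 differences. The code was tested on simulated data. The number of arrays limits the precision, and an array has no depth of counts. Where the hydrated channel was not well above background on either array, a floor was set for the hydrated level. It was the higher of the clone's own hydrated level and that of the dimmest clone well above background. For the serine decarboxylase in slow-dried total RNA the floor was its own hydrated level. The fold there is thus the plain fitted ratio and no separate bound.

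Replicate numbers follow the order of deposition, which pairs no samples. The clones and the 3 lists, which were search patterns on the annotation, were chosen with earlier results of these data known. All clones that meet the annotation rule are named, with the 3 nearest annotated clones of each by root mean square difference, and from each list up to 4 clones by lowest p in the comparison described. The lists are described by counts and medians and were not tested. Alternatives covered the scale, background, normalization, the authors' ratios, the dye term, flagged spots, dim clones, the median of spots and leaving out each array.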

Additional observations from a re-analysis of the deposited data

Results flagged for a closer look

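Lipoxygenase-1 (USD-711) responded differently in polysomal and total RNA of rehydrated gametophytes, by a log2 of 1.30, and in total RNA of slow-dried and rehydrated gametophytes, by 1.25. Both were found by limma's test of the difference itself, with adjusted p-values of 0.0054 and 0.00898. For the ethanolamine kinase (USD-354) the same test gave -1.64 for slow-dried minus rehydrated total RNA (adjusted p = 0.0144), but neither channel was well above background on the arrays of rehydrated total RNA and on array 2 of slow-dried total RNA, so this is not a measured difference in response. All 3 differences include the arrays of rehydrated total RNA, whose hydrated channel was well above background for 42.4% of clones on array 1 and 86.1% on array 2. The part of that dim channel in these differences was not tested, apart from leaving out the array. With 2 arrays a group no single array could be judged against its group. From the authors' ratios, centred on each array's median, the lipoxygenase-1 differences were 1.18 and 1.32. Neither was called there (adjusted p = 0.0739 and 0.0911 by limma). On the authors' own scale they were 0.45 and 1.22, again not called (adjusted p = 0.369 and 0.161 by limma). Total and polysomal RNA also came from different samples.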

How the results depend on the processing

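Arrays number 2 a comparison, so each value rests on few hybridisations, and hydrated channels were dim on some arrays of total RNA. No paired analysis was possible because the labels give no replicate numbers. On the control scale the clones called changed to 647 in slow-dried (627 higher, 20 lower) and 590 in rehydrated polysomal RNA (580 and 10), from 349 and 281, and in the total RNA comparisons the split moved to 597 higher and 25 lower in slow-dried and 557 and 12 in rehydrated RNA, from 249 and 235 and from 226 and 206. For the differences polysomal minus total in slow-dried and in rehydrated plants and slow-dried minus rehydrated in total and in polysomal RNA, the counts were 225, 230, 136 and 30, and on the control scale 146, 144 (43 and 101), 89 (56 and 33) and 0 (172 at an unadjusted p under 0.05). The authors' ratios, centred, gave 31, 21, 0 (189 unadjusted) and 1 for these differences, with 212 and 6 calls in slow-dried and rehydrated polysomal RNA. On their own scale they gave 25, 0 (223 unadjusted), 0 (152 unadjusted) and 1, with 477 higher and 19 lower, 536 and 1, 412 and 20, and 342 and 6 in the slow-dried total, rehydrated total, slow-dried polysomal and rehydrated polysomal comparisons. Dye-swap normalization gave 592 calls in slow-dried polysomal RNA (555 and 37), 610 for polysomal minus total in rehydrated plants (3 and 607), 563 for slow-dried minus rehydrated in polysomal RNA, and splits of 534 and 46, 602 and 3, and 40 and 151 in slow-dried total RNA, rehydrated total RNA and their difference. With each array left out in turn, the counts ran from 129 to 137 in slow-dried polysomal RNA, 0 to 0 in rehydrated polysomal RNA, 62 to 261 and 2 to 215 for polysomal minus total in slow-dried and rehydrated plants, 60 to 145 for slow-dried minus rehydrated in total RNA and 0 to 0 in polysomal RNA (64 to 104 unadjusted).

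The serine decarboxylase stayed above 0 in all 4 comparisons with hydrated tissue under every alternative run. It lost its call with the authors' ratios in 3 of the 4 and with median centring in slow-dried total RNA (0.41, adjusted p = 0.13). Leaving out an array also cost the call in slow-dried total (array 1), slow-dried polysomal (array 2) and rehydrated polysomal RNA (either array). Reversals of lipoxygenase-1 in slow-dried total RNA were 1.47 on the control scale, 0.27 with median centring, 0.0095 without background correction, 0.21 and 1.86 with the authors' ratios centred and on their own scale, and 1.502 with dye-swap normalization. In rehydrated total RNA it was 0.64 with the authors' own scale and 0.51 with dye-swap normalization (adjusted p = 0.0502 and 0.0137), and in slow-dried polysomal RNA 1.26 on the control scale, 1.17 on the authors' own and 1.02 with dye-swap normalization. Its polysomal minus total difference in rehydrated plants was -0.44 with dye-swap normalization, where that of the serine decarboxylase was -1.17, against -0.78 and -1.51 with the authors' ratios centred and on their own scale. The ethanolamine kinase in slow-dried RNA was 1.23 in total RNA relative to the controls and 0.33 with dye-swap normalization, and -0.0495 with median centring in polysomal RNA. Slow-dried minus rehydrated in polysomal RNA turned to 0.17, 0.16 and 0.27 on the control scale for lipoxygenase-1, the serine decarboxylase and the ethanolamine kinase, to 0.95, 0.89 and 0.62 with dye-swap normalization, and to 0.082 and 0.041 for the first 2 on the authors' own scale. Leaving out an array gave -0.018 to 0.086 for lipoxygenase-1 in rehydrated polysomal RNA, and -0.41 to 0.23 and -0.42 to 0.026 for that difference of the ethanolamine kinase and the serine decarboxylase. Dye-swap normalization used no loess and no centring, so its 0 is the channel ratio after background correction and not the typical clone. Apart from the scales, dye-swap normalization and the arrays left out, which change the zero point or the samples, the cause was not tested.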

Other observations

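A second clone annotated as a 12-oxo-phytodienoic acid reductase (USD-406), singled out after its values were seen because its annotation is spelled differently from the lipid search terms, had fitted log2 ratios of 0.71 in slow-dried and 1.19 in rehydrated total RNA, and of -0.22 in slow-dried and 0.70 in rehydrated polysomal RNA (SE 0.38). The value in rehydrated total RNA was called by limma (adjusted p = 0.0339), with the hydrated channel not well above background on either array. The opr2 clone (USD-637) had 0.60, 1.10, -0.31 and 0.89 in the same order. For USD-406 the slow-dried channel was well above background on 0 of 2 arrays in total and in polysomal RNA and the hydrated channel on 0 and 1, and in rehydrated polysomal RNA the rehydrated channel passed on 2 arrays and the hydrated channel on 1. Without slide 85 its rehydrated polysomal value was -0.052 (adjusted p = 0.948).

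A pair of clones was annotated as glutamate decarboxylase, and no test was made of the difference between them. In slow-dried total RNA USD-216 was at -1.07 (adjusted p = 0.00131) and USD-735 at -0.10 (adjusted p = 0.694), and in rehydrated total RNA they were at -0.60 (adjusted p = 0.0154) and 0.37 (adjusted p = 0.181). They were at 0.45 (adjusted p = 0.0516) and 0.56 (adjusted p = 0.0764) in slow-dried polysomal RNA, and at -0.04 (adjusted p = 0.88) and 0.79 (adjusted p = 0.0313) in rehydrated polysomal RNA. On the control scale both lay above 0 in total RNA, at 0.42 and 1.39 in slow-dried and 0.59 and 1.56 in rehydrated total RNA.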
